A study of Mus musculus with 16 samples.

Results

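The unfolded protein response and the integrated stress response are the programmes by which a cell meets misfolded protein in the endoplasmic reticulum (ER) and shortage of amino acids. The 32 genes described here carry out these programmes. They were picked by name as genes of these pathways, by a rule that uses no measured value but with earlier results of these data known, and are 32 of the 47311 genes to which the deposited transcripts were assigned. By role they comprise 9 ER chaperones, 5 ER lectins and disulfide isomerases, 4 genes of ER-associated degradation, 5 sensors and transcription factors, and 9 target genes of the transcription factor ATF4. The first 3 roles, 18 genes, are called the ER genes below.

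RNA was sequenced from 16 tumours, each labelled with a mouse number of its own. All mice were C57BL/6J females kept on a high-fat diet (60% of kcal from fat) from week 8 to week 26 of age. Every mouse received 250000 E0771-luciferase cells, a mouse mammary cancer line carrying a luciferase reporter, in the mammary gland, so no lean mice and no other tumour line are among the samples. From day 3, 8 mice were injected every 3 days with an antibody against the immune checkpoint receptor PD-1 (200 µg) and 8 with the isotype control antibody IgG2a (200 µg), and tumours were taken on day 21. The comparison asks whether blocking PD-1 changed the RNA level of these genes in tumours of obese mice.

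In the unfolded protein response, misfolded protein releases the chaperone BiP (Hspa5) from 3 ER membrane sensors. IRE1 (Ern1) then removes a short intron from Xbp1 RNA, ATF6 (Atf6) is cut to free a transcription factor, and PERK (Eif2ak3) phosphorylates the translation factor eIF2α. XBP1 and ATF6 drive genes for folding and degradation in the ER. PERK, like the sensors of amino acid shortage, raises translation of Atf4, and ATF4 drives genes for amino acid synthesis and import. In tumours both programmes are known to respond to low oxygen, low glucose and high protein output.

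Libraries held 59036535 to 82591064 estimated reads. A tumour is a mixture of cells, and 3 of the 16 stood apart in the mixture or in the library. IgG2a replicate 7 had a summed level of 11367 CPM (counts scaled to a common library total) over 10 adipocyte markers against 55.0 to 360 in the other 15 tumours, 25759 CPM over 6 erythroid markers against 37.6 to 846, and the lowest sum of proliferation genes, 676 CPM. In IgG2a replicate 7 the fibroblast, macrophage and endothelial markers also summed highest, at 14196, 5536 and 1533 CPM. Elsewhere these sums were at most 7590, 2224 and 245 CPM. IgG2a replicate 3 had 38429 CPM over 10 skeletal muscle markers, against at most 202 elsewhere. The library of anti-PD-1 replicate 6 showed 38993 transcripts, and every other library at least 47997. Plasma cell markers, which belong to a cell type rich in ER proteins, summed to 390 to 486 CPM in the anti-PD-1 group and 392 to 1046 CPM in the IgG2a group, highest in IgG2a replicate 7. Of 8 genes listed as epithelial markers of the tumour cells 6 were detected in every tumour. The sum over the 8 was 544 CPM in IgG2a replicate 7 and 49.6 to 146 CPM elsewhere. Whether it follows the number of tumour cells was not tested. In such bulk samples a lower level from fewer cells of a type cannot be told apart from less RNA per cell. Results that rest on these 3 tumours are given with and without them.

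Of the 29 members with a promoter window, 13 held 1 of 2 sequences through which these factors are known to act. An ER stress response element (CCAAT, then CCACG after any 9 bases, on either strand) is the site known for ATF6 and XBP1 together with NF-Y. It was searched for from 250 bases before to 50 bases after each RefSeq gene start (GRCm38.p6), a window that 29 of the 32 genes had (not Atf6, Hyou1 and Manf). Of all 32851 windows, 39 (0.119%) held it. Of the members, 8 did, all of them ER genes, of the 16 ER genes with a window. The elements are shown with 5 bases on each side, along the gene, with the element in capitals:
Hspa5: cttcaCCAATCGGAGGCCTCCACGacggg
Hsp90b1, upstream copy: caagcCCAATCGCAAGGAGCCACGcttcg
Hsp90b1, downstream copy: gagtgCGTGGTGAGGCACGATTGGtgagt
Calr: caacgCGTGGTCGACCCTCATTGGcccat
Canx: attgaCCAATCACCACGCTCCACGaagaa
Pdia6: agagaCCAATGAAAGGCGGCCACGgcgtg
Dnajc3: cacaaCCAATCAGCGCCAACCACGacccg
Creld2: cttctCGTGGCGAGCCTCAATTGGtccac
Syvn1: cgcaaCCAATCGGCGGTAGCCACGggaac

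The copy nearest its gene was that of Syvn1, which began 44 bases before the start, and the farthest was the upstream copy of Hsp90b1, 212 bases before it. The Hspa5 stretch lies at chr2:34772020-34772048 on the plus strand, 65 bases before the RefSeq start at its first element base. Calr, Creld2 and the downstream copy of Hsp90b1 carry the element on the opposite strand. Hsp90b1 was the one member with 2 copies.

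An ATF4 response element (TGATG, then AA after any 1 base, either strand) was held by 1304 windows (3.97%) and by 5 members. Of these, 4 are among the 9 ATF4 target genes, and the other is Herpud1, of ER-associated degradation. No member window held both motifs. The matches are shown with 10 bases on each side:
Asns: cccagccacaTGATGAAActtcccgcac
Trib3: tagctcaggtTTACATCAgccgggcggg
Chac1: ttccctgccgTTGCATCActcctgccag
Nupr1: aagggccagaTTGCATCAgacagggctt
Herpud1: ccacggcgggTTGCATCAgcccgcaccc

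The Asns stretch is at chr6:7693215-7693242 on the minus strand, and its element begins 23 bases before the start. In Trib3 the element lies 14 bases after the RefSeq start, at chr2:152344029-152344056. Letters that match are a description of the window, not a measurement of binding.

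No member passed the test between the antibodies. In edgeR's quasi-likelihood fit over 16154 genes, the share of all genes that passed at an adjusted p under 0.05 was 0% (0 genes), and so was that of the 32 members, all of which were measured above the filter on low counts. The smallest adjusted p of any member was 0.434. At an unadjusted p under 0.05 stood 3 of the 32 members and 11.4% of all genes, so in this fit the members' share was near or below the background. These members were Sel1l, Creld2 and Manf. The counts moved with the setting. Without the 3 tumours that stood apart it was 7 of 32, beside 15.8% of all genes. With DESeq2 it was 3 beside 6.3%, with limma-voom and quality weights 7 beside 21.2%, and with limma on log2(TPM + 1) 2 beside 5.15%. With DESeq2 4 of 27933 genes passed, none of them a member, and 765 genes had higher and 994 lower levels at an unadjusted p under 0.05. With limma-voom and quality weights, and with limma on log2(TPM + 1), 0 genes passed.

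The 2 groups overlapped for all 32 members, and did not overlap for 0.0124% of all genes. In 6 members at least 7 of the 8 treated tumours lay above the IgG2a median (14.8% of all genes did so), and in 7 members at least 7 lay below it (15.3%). The first were Hsp90b1, Manf, Creld2, Ddit3, Phgdh and Ppp1r15a, and the second Hyou1, Canx, Sel1l, Sesn2 and the 3 sensors Atf6, Ern1 and Eif2ak3. In 4 members, all of them ATF4 target genes, the highest tumour was at least 4-fold above the lowest, as in 45.6% of all genes.

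The direction of the estimates depended on the scale. On counts, 21 of 32 members had an estimate above 0 (anti-PD-1 over IgG2a), with a median log2 fold change of 0.06, beside 43.1% of all genes and a median of -0.05. The other 11 were below 0, as were 56.9% of all genes. On the authors' TPM, which divide reads by transcript length before scaling to a common total, 9 of the 32 were above 0 with a median of -0.08, beside 31.9% of all genes and a median of -0.10. The TPM were also used without the TMM scaling between libraries that the counts had. Which of these differences moved the estimates was not tested. Without the 3 tumours that stood apart, 19 of 32 were above 0 on counts, beside 53.3% of all genes. In those 13 tumours the median was 0.04 over the members and 0.02 over all genes. Only for Manf, Creld2, Pdia6, Atf4, Ddit3, Trib3, Asns, Phgdh and Ppp1r15a was the estimate above 0 on both scales with all tumours. In the 13 tumours that of Trib3 turned below 0 on counts. On TPM those of Trib3 (-0.17), Asns (-0.11), Pdia6 (-0.07) and Phgdh (-0.03) did so.

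**Figure D1:**
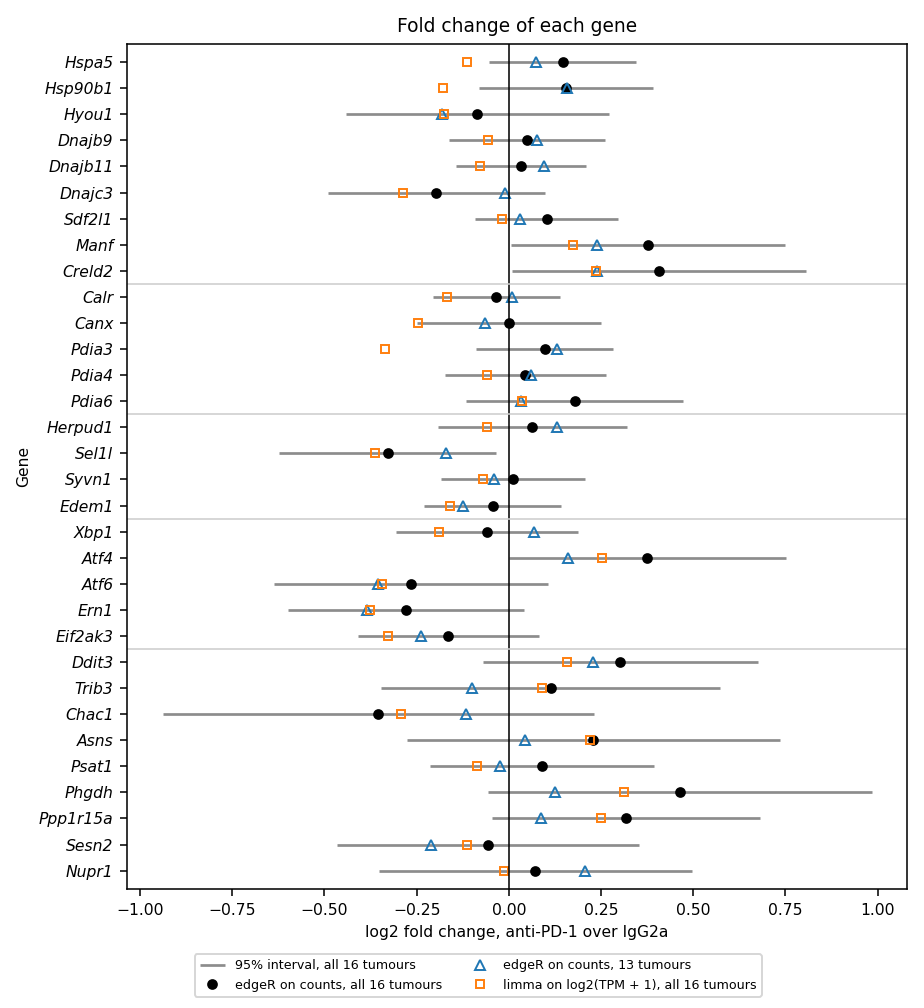
The log2 fold change of each gene (anti-PD-1 over IgG2a, horizontal axis) with its 95% interval (gray line, edgeR, 8 tumours a group), beside the estimates without 3 tumours (triangles) and on log2(TPM + 1) (squares). All intervals but those of Manf, Creld2 and Sel1l cross 0, and most squares lie to the left of the filled points.

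Among the 3 sensors the estimates were below 0 under every setting tried. Ern1, which encodes IRE1, stood at 37.9, 45.6 and 57.4 CPM in the lowest, median and highest anti-PD-1 tumour, and at 32.3, 58.5 and 79.6 CPM in the IgG2a tumours. None of the 8 anti-PD-1 tumours reached the IgG2a median, a pattern that 4.92% of all genes had. The ranges overlapped all the same, since the lowest IgG2a tumour, replicate 3, was below every treated one. Its log2 fold change was -0.28 ± 0.15 (SE, n = 8 a group; adjusted p = 0.44, edgeR) and -0.38 in the 13 tumours, where its adjusted p was 0.276.

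Atf6, whose protein is cut in the Golgi to give a factor for chaperone genes, was at 66.9, 103 and 149 CPM (lowest, median, highest) in the anti-PD-1 group and at 79.4, 140 and 171 CPM in the IgG2a group. One treated tumour exceeded the IgG2a median, and the log2 fold change was -0.27 ± 0.18 (SE; -0.36 in the 13 tumours). Eif2ak3, which encodes PERK, was at 30.3, 41.7 and 49.1 CPM against 35.3, 46.6 and 56.3 CPM, with a log2 fold change of -0.16 ± 0.12 (SE). In this gene too 1 treated tumour lay above the IgG2a median, and 2 lay below the lowest IgG2a tumour.

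The estimates of the 2 downstream factors were above 0 for Atf4 and below it for Xbp1. Atf4 (chr15:80255184-80257541), the factor that switches on amino acid genes, was at 329, 390 and 721 CPM in the anti-PD-1 tumours and at 181, 349 and 397 CPM in the IgG2a tumours. Its extremes were 2 of the tumours that stood apart: anti-PD-1 replicate 6 had 721 CPM, with the next tumour at 455, and IgG2a replicate 7 had 181 CPM, with the next at 282. For Atf4 the log2 fold change was 0.38 ± 0.18 (SE; adjusted p = 0.434, edgeR) with all tumours, 0.22 without anti-PD-1 replicate 6 and 0.16 without the 3.

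Xbp1, the substrate of IRE1 and the factor behind many ER genes, had medians of 139 CPM (anti-PD-1) and 134 CPM (IgG2a), and ranges of 124 to 166 and 124 to 223. The highest value was again in IgG2a replicate 7. Its log2 fold change was -0.06 ± 0.12 (SE), and 0.05 without that tumour. The intron that IRE1 removes lies within exon 4 of 5 of Xbp1-201 at chr11:5524279-5524304 (GRCm38, plus strand) and is shown in capitals, since its loss is the usual sign of IRE1 activity:
Xbp1: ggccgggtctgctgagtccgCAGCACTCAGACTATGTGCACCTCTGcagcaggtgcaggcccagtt

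Of the 4 Xbp1 transcripts in the annotation 3 hold these 26 bases and none holds the spliced junction. Reads of spliced and unspliced Xbp1 RNA were therefore counted together, and no measure of splicing is given.

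By median TPM, a level per length, the chaperones Hsp90b1 (GRP94), at 855, and Hspa5, at 729, stood first of the 32, followed by the lectin Calr at 605. The other chaperones spanned 330 TPM (Manf) to 23.3 TPM (Dnajc3). Chac1 was last at 5.47 TPM, after Ern1 at 8.70 TPM and Eif2ak3 at 12.3 TPM. Over the 16 tumours the ranges of Hsp90b1 (374 to 1223 TPM) and Hspa5 (405 to 895 TPM) overlapped, and Hsp90b1 was above Hspa5 in 14 of 16 tumours.

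Hspa5 (chr2:34771970-34777547), the chaperone BiP, was at 958, 1097 and 1373 CPM (lowest, median, highest) in the anti-PD-1 tumours and at 838, 1036 and 1091 CPM in the IgG2a tumours. The 4 highest tumours were treated ones, and 5 of 8 lay above the IgG2a median. BiP thus had a log2 fold change of 0.15 ± 0.09 (SE; 95% interval -0.05 to 0.35). It was 0.07 in the 13 tumours and -0.11 on log2(TPM + 1).

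Hsp90b1 was at 1021, 1120 and 1404 CPM against 841, 1008 and 1448 CPM. All 8 treated tumours were above the IgG2a median, as in 4.74% of all genes, while the highest tumour of all was IgG2a replicate 3, the one rich in muscle markers. The log2 fold change was 0.16 ± 0.11 (SE) with all tumours, 0.24 without that tumour, 0.16 in the 13 tumours and -0.18 on log2(TPM + 1).

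Creld2 and Manf, small ER proteins that are made and partly secreted under ER stress, had the highest estimates of the ER genes. Creld2 (chr15:88819646-88826683) was at 53.3, 67.2 and 149 CPM in the anti-PD-1 group and at 44.6, 56.2 and 78.3 CPM in the IgG2a group. In anti-PD-1 replicate 6 it reached 149 CPM, and the next treated tumour had 72.2. Its log2 fold change was 0.41 ± 0.19 (SE; adjusted p = 0.434, edgeR), 0.19 without that tumour and 0.24 in the 13 tumours.

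Manf was at 116, 155 and 289 CPM in the anti-PD-1 tumours and at 94.7, 132 and 178 CPM in the IgG2a tumours, the 289 CPM again being anti-PD-1 replicate 6. Its log2 fold change of 0.38 ± 0.18 (SE) became 0.23 without that tumour. In both genes 7 of 8 treated tumours exceeded the IgG2a median.

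The other chaperones differed little between the antibodies. Dnajb9 and Dnajb11, J-domain partners of BiP, had log2 fold changes of 0.05 and 0.03, and Sdf2l1, found in a complex with BiP, had 0.10. These 3 were at 0.08, 0.10 and 0.03 in the 13 tumours and below 0 on log2(TPM + 1). Dnajc3, an inhibitor of PERK and a BiP co-chaperone, was at -0.20 ± 0.14 (SE) with all tumours and at -0.01 in the 13 tumours. Its lowest tumour was anti-PD-1 replicate 6 (59.4 CPM) and its highest IgG2a replicate 7 (160 CPM), and leaving out each in that order gave -0.13 and -0.08. Hyou1, a large chaperone that acts with BiP, was at -0.09 ± 0.17 (SE), and its 2 lowest tumours were the same pair, at 200.1 and 164 CPM. Leaving out anti-PD-1 replicate 6 gave -0.01, leaving out IgG2a replicate 7 gave -0.19, and the estimate was -0.18 in the 13 tumours.

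The lectins and isomerases, which fold and check glycoproteins and form disulfide bonds, held the steadiest gene. Over the 16 tumours the SD of log2 CPM in this role reached 0.28 (Pdia6). It was 0.12 for Calr (calreticulin), the smallest of the 32. Its median was 793 CPM in the anti-PD-1 group and 824 CPM in the IgG2a group, with a log2 fold change of -0.03 ± 0.08 (SE). Canx (calnexin) had 0.00 ± 0.12, with 486 CPM in IgG2a replicate 7 and 668 to 890 CPM in every other tumour. The isomerases Pdia3, Pdia4 and Pdia6 had 0.10, 0.04 and 0.18, each with an interval that spans 0. Pdia3 showed how far the scales part, with -0.34 on log2(TPM + 1). Pdia6 was highest in anti-PD-1 replicate 6 (939 CPM) and lowest in IgG2a replicate 7 (354 CPM), and leaving out each in that order gave 0.08 and 0.10, and the 13 tumours 0.03.

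Of the genes that pull misfolded protein out of the ER, Sel1l had the smallest unadjusted p of the members. Sel1l (chr12:91806043-91849157) encodes the scaffold of the ubiquitin ligase HRD1, and was at 61.1, 96.4 and 115 CPM in the anti-PD-1 group and at 96.6, 111 and 183 CPM in the IgG2a group. One treated tumour lay above the IgG2a median and 4 lay below the lowest IgG2a tumour. The log2 fold change was -0.33 ± 0.14 (SE; unadjusted p = 0.0306, adjusted p = 0.434, edgeR), -0.21 without IgG2a replicate 7 and -0.17 in the 13 tumours. The ends of its range were once more anti-PD-1 replicate 6 and IgG2a replicate 7.

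Syvn1, the ligase HRD1 itself, had 0.01 ± 0.09 (SE). Herpud1, which gathers the HRD1 complex, had 0.06 ± 0.12 (SE), with its highest level in IgG2a replicate 3 (117 CPM), and 0.16 without that tumour. Edem1, which hands trimmed glycoproteins to degradation, had -0.04 ± 0.09 (SE), and -0.13 in the 13 tumours.

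Several ATF4 target genes were the most variable of the members. Over the 16 tumours, the SD of log2 CPM was 0.62 for Asns, 0.59 for Phgdh, 0.55 for Chac1 and 0.52 for Trib3, the 4 widest of the 32. The median SD was 0.30 over the members and 0.45 over all genes tested.

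Asns (chr6:7675169-7693254), which makes asparagine, was at 201, 280 and 333 CPM in the anti-PD-1 tumours and at 52.4, 264 and 289 CPM in the IgG2a tumours. The 52.4 CPM belonged to IgG2a replicate 7, and the next lowest of that group had 225. For Asns the log2 fold change was 0.23 ± 0.24 (SE) with all tumours, 0.08 without that tumour and 0.04 in the 13 tumours. Trib3 (chr2:152337422-152344032), a pseudokinase that feeds back on ATF4, was at 39.7, 48.0 and 62.9 CPM against 12.8, 47.9 and 62.0 CPM. Its medians were alike, and its lowest level, 12.8 CPM, was in IgG2a replicate 7. The log2 fold change of Trib3 was 0.11 ± 0.22 (SE) and turned to -0.03 without it.

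Phgdh and Psat1 encode successive enzymes of serine synthesis. Phgdh was at 257, 306 and 687 CPM in the anti-PD-1 group and at 86.2, 276 and 372 CPM in the IgG2a group, and both ends were tumours that stood apart, anti-PD-1 replicate 6 and IgG2a replicate 7. Its log2 fold change of 0.46 ± 0.25 (SE), the highest of the 32, fell to 0.26 and 0.33 when each was left out in that order, and to 0.13 in the 13 tumours. Psat1 was at 201, 224 and 271 CPM against 101, 232 and 255 CPM, and its estimate of 0.09 ± 0.14 (SE) became -0.02 in the 13 tumours.

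Chac1, which breaks down glutathione, was the scarcest member and had the lowest estimate, -0.35 ± 0.28 (SE). It was at 17.7 CPM in IgG2a replicate 3 and at 3.04 to 8.83 CPM in the other 15 tumours, and its estimate was -0.07 without that tumour and -0.12 in the 13 tumours. Ppp1r15a, which reverses the phosphorylation of eIF2α, was at 58.1, 69.5 and 84.7 CPM (anti-PD-1) and 24.7, 60.6 and 72.2 CPM (IgG2a), and its estimate of 0.32 ± 0.17 (SE) became 0.21 without IgG2a replicate 7 and 0.09 in the 13 tumours. Ddit3, which encodes the factor CHOP of terminal ER stress, had 0.30 ± 0.18 (SE), and the IgG2a median was exceeded by 7 of 8 treated tumours. It was 0.18 without anti-PD-1 replicate 6 and 0.23 in the 13 tumours. Sesn2, a sensor of leucine, had -0.06 ± 0.19 (SE) and -0.21 in the 13 tumours. Nupr1, a small stress-induced chromatin protein, had 0.07 ± 0.20 (SE) and 0.21 in the 13.

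**Figure D2:**
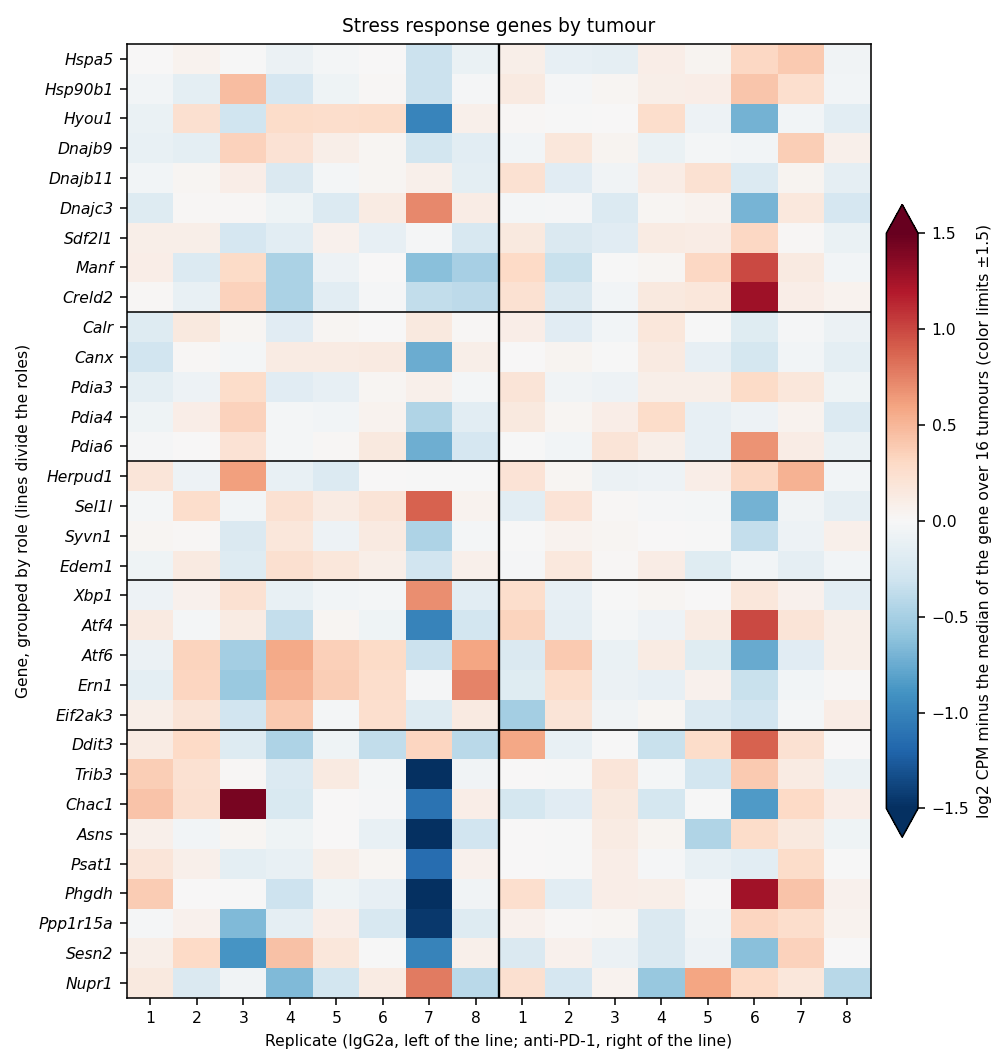
The level of each of the 32 genes (rows, by role) in each of the 16 tumours (columns), as log2 CPM minus the median of that gene over all tumours, from blue (lower) to red (higher). IgG2a replicate 7 is blue in 7 of the 9 ATF4 target rows and red for Dnajc3, Sel1l, Xbp1 and Nupr1, and anti-PD-1 replicate 6 holds both strong red and strong blue rows.

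IgG2a replicate 7 was the tumour with the highest adipocyte, erythroid, fibroblast, macrophage and endothelial markers. In it 7 of the 9 ATF4 target genes lay more than 0.5 log2 units below their median over the 16 tumours. So did 12 of all 32 members, and by CPM this tumour was the lowest of the 16 for 18 members. The same counts over all genes were not made. The median deviation of the 9 ATF4 target genes was -1.14. It was -0.32 for the ER chaperones, -0.45 for the lectins and isomerases and -0.14 for the degradation genes. The lowest was Asns at -2.39. Nupr1 and Ddit3 departed from the other ATF4 target genes: Nupr1 was at 57.7 CPM there, its highest level of all tumours, and Ddit3 was at 24.0 CPM, the highest of the IgG2a group. Atf4 itself was 1.00 log2 units below its median. The tumour also had the lowest sum of 37 further ATF4 target genes, 2410 CPM against 4250 to 5097 CPM elsewhere. Other stress genes were also lowest there: cytosolic heat shock genes summed to 5096 CPM against 8452 to 12011 elsewhere, and mitochondrial unfolded protein genes to 970.2 CPM against 1818 to 2842. The part that the mixture of cells played in these levels was not tested.

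Anti-PD-1 replicate 6 differed in another way. By CPM it was the highest of the 16 tumours for 11 of the 32 members and the lowest for 3. By TPM it was the highest for 3 and the lowest for 19. The same counts over all genes were not made, so whether they are particular to the members was not tested. Hspa5 stood at 1300.2 CPM there, second to anti-PD-1 replicate 7, and at 405 TPM, the lowest of all. The members above their median CPM tended to have short transcripts and those below it long ones: across the 32 genes, the deviation in this tumour had a Spearman rho of -0.64 with the length of the gene's main transcript. In IgG2a replicate 3 the same rho was -0.45, and in IgG2a replicate 7 it was 0.08. These genes share a library, and the rho is a description without a test and without its value over all genes.

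The log2 fold changes themselves had a rho of -0.63 with transcript length across the 32 genes, and of -0.74 when the 3 tumours were left out. The long transcripts of Atf6, Ern1, Eif2ak3 and Sel1l had estimates below 0, and the short ones of Manf, Creld2, Ddit3 and Atf4 had estimates above 0. The same rho over all genes was not computed, so whether it is particular to the members was not tested. The part of length in any difference between the antibodies was not tested.

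**Figure D3:**
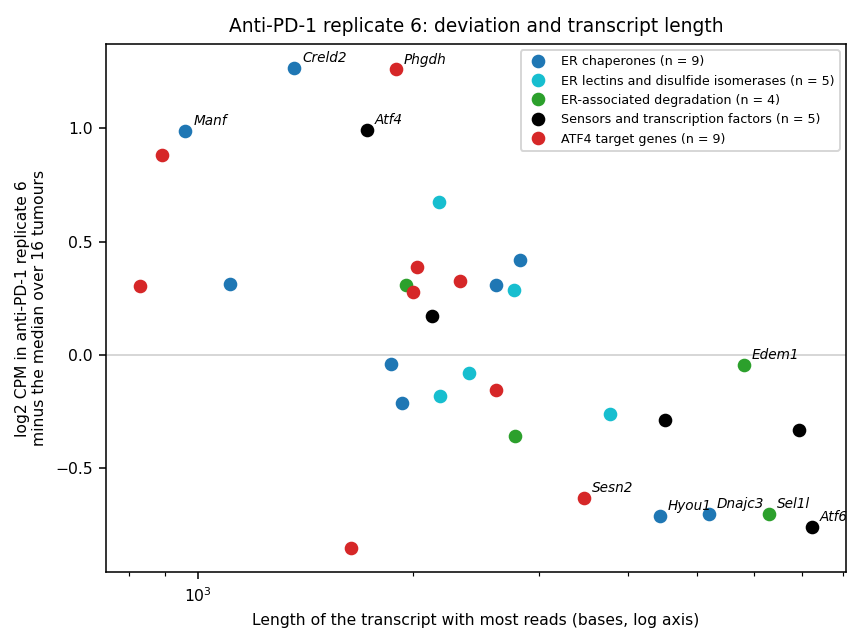
For each of the 32 genes, the log2 CPM in anti-PD-1 replicate 6 minus the median over 16 tumours (vertical axis) against the length in bases of the transcript with most reads (log axis), colored by role. Creld2, Manf, Phgdh and Atf4 are at the upper left and Hyou1, Dnajc3, Sel1l and Atf6 at the lower right (rho = -0.64, n = 32).

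The tumour also differed in which transcripts took the reads of a gene. Sel1l-210 took 92.9% of Sel1l reads in anti-PD-1 replicate 6, 10.7% in anti-PD-1 replicate 7 and 0 in the other 14 tumours, while Sel1l-201, the main transcript elsewhere, took 2.64% in it and at least 67.1% in the others. Syvn1-201 took 89.6% of Syvn1 reads in the same tumour and 26.9% to 65.1% in the others.

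The ER genes and the ATF4 target genes were then set against each other in each tumour, as the mean over genes of log2 CPM less the gene's median. The 18 ER genes averaged 0.03 ± 0.07 (SD, n = 8) in the anti-PD-1 tumours and -0.03 ± 0.10 (SD, n = 8) in the IgG2a tumours. For the 9 ATF4 target genes the means were 0.04 ± 0.14 and -0.15 ± 0.39 (SD, n = 8 each). Most of the latter spread was IgG2a replicate 7, at -1.07, and the other 15 tumours lay between -0.19 and 0.25.

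The difference, ER genes minus ATF4 target genes, was -0.01 ± 0.13 in the anti-PD-1 tumours and 0.13 ± 0.33 in the IgG2a tumours (SD, n = 8 each), and the groups overlapped. The gap between the groups was -0.13, which shrank to -0.03 without IgG2a replicate 7 and was 0.01 in the 13 tumours. On log2(TPM + 1) it was -0.17. No test is given for a score over chosen genes.

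**Figure D4:**
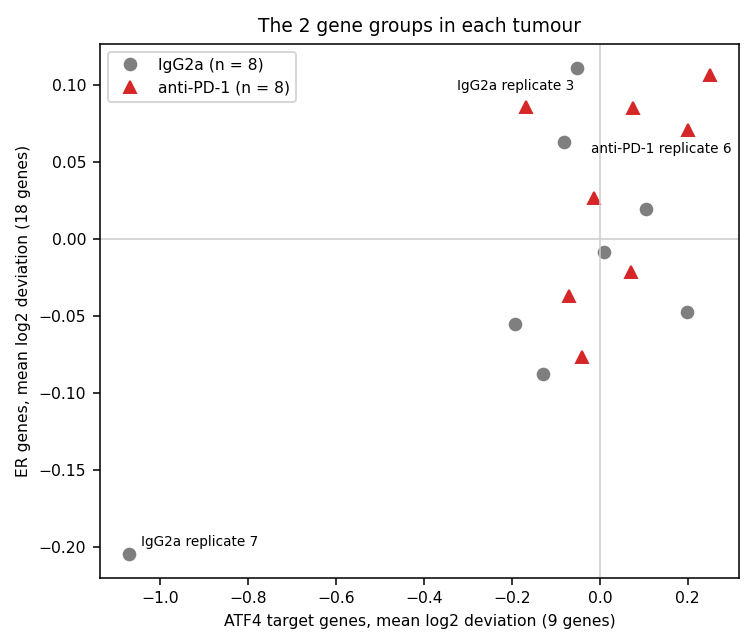
Each point is 1 tumour, with the mean log2 deviation of the 9 ATF4 target genes on the horizontal axis and that of the 18 ER genes on the vertical axis, in IgG2a (circles) and anti-PD-1 (triangles). IgG2a replicate 7 lies alone at -1.07 and -0.20, and the other 15 tumours of both groups overlap.

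Within the roles, genes moved together across tumours to differing degrees. For 12 pairs Pearson's r and Spearman's rho of log2 CPM were computed over the 16 tumours, with permutation p-values (two-sided) adjusted over the 12. The closest pair was Trib3 and Asns, both ATF4 target genes, with r = 0.97 (permutation adjusted p = 0.00072) and rho = 0.82. The relation rested in part on IgG2a replicate 7 but did not vanish without it: r was 0.75 without that tumour, 0.67 without the 2 tumours farthest from the median and 0.68 in the 13 tumours, where the adjusted permutation p was 0.0522. In the anti-PD-1 group alone r was 0.92.

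The 2 pairs that pass through serine synthesis depended on which tumours were left out. Asns and Psat1 had r = 0.91 over all tumours, 0.20 without IgG2a replicate 7, -0.02 without the 2 farthest and 0.61 in the 13 tumours (permutation adjusted p = 0.0580). Psat1 and Phgdh had 0.73, -0.01, -0.18 and 0.72 in the same order (permutation adjusted p = 0.0522 in the 13). Over all tumours the r of both pairs passed (permutation adjusted p = 0.0374 for the former and 0.0472 for the latter). Over all tumours rho was 0.34 for the former pair and 0.33 for the latter (permutation adjusted p = 0.225 for each rho). Atf4 and Asns, a factor and its target, had r = 0.74 and rho = 0.62 over all tumours (permutation adjusted p = 0.0104 and 0.0343). Their r was 0.24 without the 2 farthest and 0.22 in the 13 tumours (permutation adjusted p = 0.507 in the 13). Trib3 had r = 0.49 with Chac1 and -0.01 with Ddit3, neither of which passed (permutation adjusted p = 0.136 and 0.983). In the 13 tumours these were 0.65 and 0.30.

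BiP was paired with 3 of the other 8 chaperones. Hspa5 had r = 0.68 with Hsp90b1 (rho 0.56), 0.56 with Sdf2l1 (rho 0.72) and 0.68 with Creld2 (rho 0.72), with permutation adjusted p-values for r of 0.0172, 0.0405 and 0.0183. For rho the permutation adjusted p-values were 0.0607, 0.0107 and 0.0107, so that of Hsp90b1 did not pass. Without the 2 farthest tumours r was 0.57, 0.85 and 0.86. In the 13 tumours r was 0.66, 0.58 and 0.57, where none passed (permutation adjusted p = 0.0522, 0.0540 and 0.0723). In the IgG2a group alone r was 0.49, 0.11 and 0.57. Hspa5 and Xbp1 changed sign with 1 tumour: r was -0.15 over all tumours (rho 0.41), 0.55 without IgG2a replicate 7 and 0.56 in the 13 tumours. Hspa5 and Ern1 had r = -0.33 (permutation adjusted p = 0.245). Between the ER genes and the ATF4 target genes, Hspa5 and Trib3 had r = 0.61 over all tumours (permutation adjusted p = 0.0405). In the 13 tumours their r was 0.16 (permutation adjusted p = 0.598). Their rho over all tumours was 0.42 (permutation adjusted p = 0.176).

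**Figure D5:**
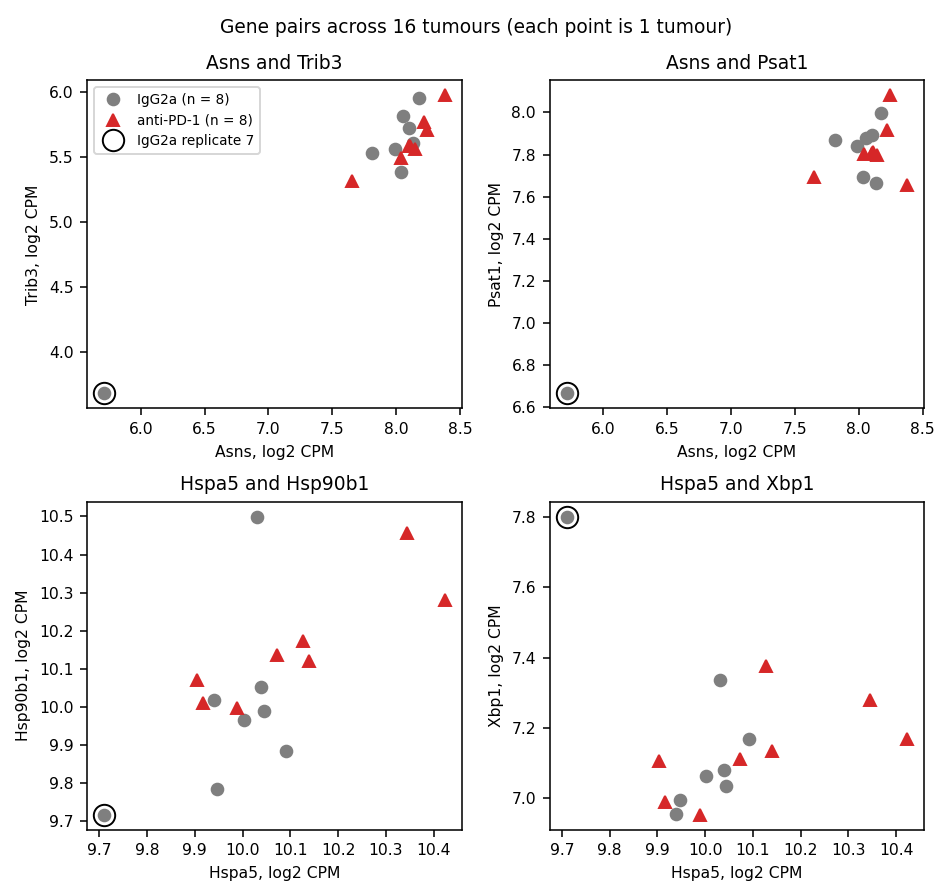
Pairs of genes across 16 tumours, with log2 CPM on both axes, IgG2a as circles and anti-PD-1 as triangles, and IgG2a replicate 7 ringed. The ringed tumour lies far to the lower left for Asns with Trib3 and Asns with Psat1, and to the upper left for Hspa5 with Xbp1.

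Further genes of the same pathways were counted in the same way, and none passed the test. Of 34 tested genes of ER folding and translocation other than the members 21 had estimates above 0 on counts and 14 on TPM. Those with the smallest unadjusted p were the isomerase Pdia5 (log2 fold change 0.34), the translocon-associated Ssr2 (0.33) and the signal peptidase subunit Spcs2 (0.32). Of 19 other genes of ER-associated degradation 9 were above 0 on counts and 5 on TPM. Edem3, a mannosidase, was at -0.34, and 0 of 8 treated tumours exceeded its IgG2a median, and Ube2j2 and Derl2, a conjugating enzyme and a channel subunit, were at 0.33 and 0.19.

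Of 35 other ATF4 target genes 21 were above 0 on counts and 14 on TPM. Gdf15, a secreted stress hormone, was at 18.1, 32.5 and 93.2 CPM (anti-PD-1) and 17.4, 22.9 and 32.5 CPM (IgG2a), and its estimate was 0.75 ± 0.29 on the log2 scale (SE; adjusted p = 0.434, edgeR). Gpt2, an alanine aminotransferase, was at -0.23, and the lipoprotein receptor Vldlr at -4.17. Vldlr was highest in IgG2a replicates 3 and 7, with 37.0 CPM in replicate 3 against a group median of 0.488 CPM. Of 20 other kinases, factors and phosphatases of the pathways 11 were above 0 on counts and 7 on TPM, among them the double-stranded RNA sensor Eif2ak2 (-0.34) and Eif2b1, a subunit of the exchange factor that eIF2α phosphorylation blocks (0.21). The ER membrane protein Wfs1 was at -3.27, with its highest levels in IgG2a replicate 7 (86.5 CPM) and then replicate 3.

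No gene of the stress programmes of other compartments passed the test. Of 12 cytosolic heat shock genes 9 were above 0 on counts and 1 on TPM, and the co-chaperones Bag3 and Dnaja1 were at -0.21 and 0.17. Hspb1, a small heat shock protein abundant in muscle, had 370.4 CPM in IgG2a replicate 3, which replicate 7 followed, and a group median of 2.83 CPM. Of 8 genes of the mitochondrial unfolded protein response 6 were above 0 on counts and 4 on TPM.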

How the data were processed

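Messenger RNA was selected with oligo-dT beads and sequenced from 16 tumours as non-directional libraries from RNA of integrity number above 5, per the labels' protocols, so reads of overlapping genes on opposite strands cannot be told apart. The authors deposited, per the file headers, 1 table a tumour with length, TPM and estimated count for each of 115088 transcripts. The TPM values and the expected counts are thus the authors' own. Per the submitters' processing notes the build was GRCm38, and edgeR and limma were used, and the quantifier is not given in the sources used here.

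Transcripts were matched by identifier to GENCODE vM21 (114200 matched; 0.167% to 0.217% of reads had no match), and estimated counts were summed per gene (47311 genes) and rounded. Depth was 59036535 to 82591064 estimated reads, which limits the precision of the scarcest genes. Genes were tested with edgeR 4.0.16 in R 4.3.3 (filterByExpr with a minimum count of 10 and total of 15, TMM scaling, robust quasi-likelihood fit, 8 against 8 tumours, Benjamini-Hochberg over 16154 genes). CPM used TMM-scaled library sizes, and log2 CPM a prior count of 2. On simulated data made from these libraries, 20% of genes changed 1.5-fold, 44% of those changed 2-fold and 78% of those changed 4-fold were recovered, and 6 of 15954 unchanged genes were called. The authors' TPM was summed per gene and taken as log2(TPM + 1) with limma 3.58.1, without TMM scaling. Pairs of genes used 100000 permutations. The alternatives were DESeq2 1.42.0, other scaling, no filter, limma-voom with quality weights, a covariate for the 2 ranges of animal numbers, and leaving out tumours.

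The members and the lists were chosen with earlier results of these data known. Every member is named, and of each other list up to 3 tested genes of smallest unadjusted p. Replicate numbers follow the order of the labels. No 2 tumours of a group were the same library (r of log2 CPM 0.794 to 0.983). Promoter windows come from RefSeq (GRCm38.p6). For 27 of the 30 member windows the end of the window, after the start, was found on the gene's strand in its transcripts. This held for 11 of the 13 members with a motif. The bases before the start were not checked in this way.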

Additional observations from a re-analysis of the deposited data

Results flagged for a closer look

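Dixon's test, which compares the gap at the end of a group of 8 tumours with the group's range, marked 24 of 70 groups. For a single group taken alone chance marks about 1 in 20, but the 70 groups share the same libraries. The share marked over all genes was not computed, so the count is not a result about the members.

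Of the 24 marked, 12 were in IgG2a replicate 7. It was the lowest of its group for Hspa5 (838 CPM), Hyou1 (164), Atf4 (181), Trib3 (12.8), Asns (52.4), Psat1 (101) and Phgdh (86.2). It was the highest for Dnajc3 (160 CPM), Sel1l (183) and Xbp1 (223). Its mean over the ATF4 target genes was -1.07, and its ER minus ATF4 difference was 0.87.

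In anti-PD-1 replicate 6 the highest levels of the group were those of Creld2 (149 CPM), Pdia6 (939), Atf4 (721) and Phgdh (687), and the lowest those of Hyou1 (200.1), Dnajc3 (59.4), Sel1l (61.1) and Syvn1 (79.7).

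IgG2a replicate 3 was the highest of its group for Hsp90b1 (1448 CPM) and Herpud1 (117). Asns was lowest of the treated group in anti-PD-1 replicate 5 (201 CPM), whose summed adipocyte markers were the highest of that group. The ER minus ATF4 difference was highest of the treated group in anti-PD-1 replicate 4 (0.25).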

How the results depend on the processing

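No paired analysis was possible because the replicate numbers follow the order of the labels and each tumour came from its own mouse. The fit with limma on log2(TPM + 1) and the counts of members by direction were chosen after seeing the data. Of 736 member estimates under alternatives 695 kept their direction and 41, over 16 members, changed sign, and no member passed the test in any. On log2(TPM + 1) 9 members and 3 ER genes were above 0, and the sign changed for Hspa5 (-0.11), Hsp90b1 (-0.18), Dnajb9 (-0.058), Dnajb11 (-0.079), Sdf2l1 (-0.017), Canx (-0.25), Pdia3 (-0.34), Pdia4 (-0.060), Herpud1 (-0.059), Syvn1 (-0.069), Psat1 (-0.087) and Nupr1 (-0.012). With quality weights it changed for Canx (-0.096), Syvn1 (-0.023), Xbp1 (0.010) and Trib3 (-0.060). DESeq2 called 4 genes, with 27933 tested. The cause of these changes was not tested.

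Leaving out 1 tumour, or the 3 that stood apart together, the estimates crossed 0 for Calr (-0.063 to 0.0084), Canx (-0.076 to 0.030), Pdia4 (-0.0074 to 0.10), Herpud1 (-0.00054 to 0.16), Syvn1 (-0.041 to 0.052), Xbp1 (-0.095 to 0.068), Trib3 (-0.10 to 0.19), Psat1 (-0.023 to 0.13), Sesn2 (-0.21 to 0.024) and Nupr1 (-0.023 to 0.23). With 1 tumour left out, the number of members above 0 ranged from 17 (without IgG2a replicate 7) to 22, and the ER minus ATF4 gap from -0.19 to -0.028. Without the 3 no pair passed: r was 0.66 for Hspa5 with Hsp90b1, 0.58 with Sdf2l1, 0.57 with Creld2, 0.56 with Xbp1, -0.43 with Ern1 and 0.16 with Trib3, 0.30 for Trib3 with Ddit3, 0.68 for Trib3 with Asns, 0.65 with Chac1, 0.61 for Asns with Psat1, 0.72 for Psat1 with Phgdh and 0.22 for Atf4 with Asns. The alternatives listed for the share of spliced Xbp1 were not run, since no transcript separates it.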
